A study of Mus musculus with 12 samples.

Results

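Chromatin accessibility was followed here at the genes of the inflammasome in graft-derived and host brain macrophages. The set holds 9 genes, namely Nlrp3, Nlrp1b, Nlrc4, Aim2, Mefv, Pycard, Casp1, Casp4 and Gsdmd, and its members are the ATAC-seq peaks that the deposited annotation assigns to the nearest start site of one of them. In untreated mice these were 45 of 60288 peaks and after lipopolysaccharide (LPS) 41 of 54953 peaks, and all 9 genes had at least 1 peak in each table. The genes were chosen by name and not by a rule on measured values, but with earlier results of these data known.

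Inflammasomes are protein complexes that form in the cytosol of macrophages when a sensor meets a microbial product or a sign of damage. Sensors of the NOD-like, PYHIN and pyrin families recruit caspase-1, mostly through the adaptor ASC (Pycard), and caspase-1 cleaves the precursors of interleukin-1 beta and interleukin-18 as well as gasdermin D, whose fragment forms pores in the cell membrane. Caspase-11, which the tables list under the symbol Casp4, binds LPS in the cytosol and cleaves gasdermin D directly. In microglia and other macrophages several of these genes are transcribed at a low level until the cell has been primed, for instance through a Toll-like receptor.

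The cells came from C57BL/6J wild-type bone marrow chimeras. Recipients were irradiated with 950 cGy at 6 weeks of age and received congenic wild-type marrow carrying CD45.1, an allele of Ptprc. The labels give an interval of 3.5 or 9 months after transfer, and the study's text states the longer one for these profiles. Libraries numbered 4, 5 and 6 came from untreated mice, and libraries 1, 2 and 3 from mice that received LPS at 2.5 mg/kg, 12 h before they were killed. From their brains, CD45.1 cells (graft-derived macrophages) and CD45.2 cells (host microglia) were sorted as Ly6C/G-negative, CD11b-positive, CD45-low cells, which gave 4 groups of 3 libraries. The labels number the libraries as replicates without naming an animal, so p-values measure the spread between these libraries, which may be technical. The recipients had been irradiated in all 4 groups, so no library represents microglia of an unmanipulated brain. The host cells were themselves irradiated, whereas the graft-derived cells came from marrow given afterwards. Irradiation of the cells and population therefore cannot be told apart in any comparison of CD45.1 with CD45.2. The comparisons ask whether grafted and host cells differ at these genes at rest, whether they differ after the challenge, and whether they respond to it differently.

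Untreated libraries held 8392877.5 to 9107770 tags and LPS libraries 2966364 to 6556594.5 tags, with a median of 16 to 35 and of 8 to 23.5 tags per merged peak. The CD45.2 library of untreated replicate 4 stood apart, with 9.30% of its tags in its own peaks, the lowest share of the 12. Peaks were called, merged and counted separately in untreated and LPS mice, so treatment and table cannot be told apart, and the median width of the peaks was 132 bp in the untreated and 167 bp in the LPS table. The summed normalized tags of the microglia marker list were lower in untreated CD45.1 (2244 to 3142.5) than in CD45.2 libraries (3862 to 4208), and those of a list of graft-derived and border macrophage markers were higher (1609 to 1655 against 883 to 973). In sorted pools of cells, fewer cells with an open site and a less open site in every cell cannot be told apart.

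Windows of 200 bases from the mouse build mm9 are printed for the peaks on which the results turn, 5′ to 3′ on the strand of the gene. Capitals mark letters of short motifs of factors known in macrophages, searched on both strands: GAGGAAG (PU.1), TGANTCA (AP-1), TTGCNNAA (C/EBP), GAAA and GAAA with 2 bases between (IRF), GGG and CC with 5 bases between (NF-kappaB), TGTGGT (RUNX), TTCNNNGAA (STAT) and CTA and TAG with 4 bases between (MEF2), where N is any base. The first set holds windows at which CD45.1 and CD45.2 cells differed in untreated mice. The Nlrc4 window lies just upstream of its start site (chr17:74858449-74858648, minus strand). The Aim2 windows are centred on peaks at -1505 bp (chr1:175349131-175349330) and -8455 bp (chr1:175342181-175342380), both on the plus strand. The file annotation calls them intergenic, but in GENCODE vM1 they lie inside a longer Aim2 transcript, and 4 bases of the first belong to an exon. The Mefv window lies in intron 2 (chr16:3714810-3715009, minus strand).
Nlrc4 promoter: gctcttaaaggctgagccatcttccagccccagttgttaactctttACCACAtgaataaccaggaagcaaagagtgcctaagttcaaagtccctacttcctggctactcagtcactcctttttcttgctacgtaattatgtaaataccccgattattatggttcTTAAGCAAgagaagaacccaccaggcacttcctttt
Aim2 -1505 bp: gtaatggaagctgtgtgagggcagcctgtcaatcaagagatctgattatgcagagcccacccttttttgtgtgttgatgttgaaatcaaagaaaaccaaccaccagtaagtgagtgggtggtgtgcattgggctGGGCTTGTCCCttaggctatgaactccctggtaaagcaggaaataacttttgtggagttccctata
Aim2 -8455 bp: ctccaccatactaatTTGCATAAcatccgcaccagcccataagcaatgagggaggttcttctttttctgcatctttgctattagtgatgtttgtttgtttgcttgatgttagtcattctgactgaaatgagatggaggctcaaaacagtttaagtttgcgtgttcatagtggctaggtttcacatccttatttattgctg
Mefv intron 2: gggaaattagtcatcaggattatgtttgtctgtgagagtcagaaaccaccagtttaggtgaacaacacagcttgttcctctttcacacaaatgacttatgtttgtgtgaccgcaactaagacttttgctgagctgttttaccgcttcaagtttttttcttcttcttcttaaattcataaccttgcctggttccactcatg
The Nlrc4 window held 1 C/EBP and 1 RUNX match, the latter outside the untreated peak. The Aim2 windows held 2 overlapping NF-kappaB matches and 1 C/EBP match, and the Mefv window held none of the 8 motifs.

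The second set holds windows at which the tags were higher after LPS in both populations. They lie upstream of Mefv (chr16:3723326-3723525, minus strand), in intron 5 of Nlrp3 (chr11:59367740-59367939, plus strand), upstream of Gsdmd (chr15:75687820-75688019, plus strand) and just upstream of the start site of Casp4 (chr9:5308628-5308827, plus strand).
Mefv -5301 bp: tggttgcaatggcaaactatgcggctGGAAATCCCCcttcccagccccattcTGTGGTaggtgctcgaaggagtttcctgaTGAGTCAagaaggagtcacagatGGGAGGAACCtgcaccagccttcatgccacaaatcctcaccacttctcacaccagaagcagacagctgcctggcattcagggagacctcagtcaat
Nlrp3 intron 5: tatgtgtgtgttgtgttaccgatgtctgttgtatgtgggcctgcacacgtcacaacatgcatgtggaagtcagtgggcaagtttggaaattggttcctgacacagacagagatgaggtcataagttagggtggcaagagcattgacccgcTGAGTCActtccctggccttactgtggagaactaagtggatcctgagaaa
Gsdmd -4850 bp: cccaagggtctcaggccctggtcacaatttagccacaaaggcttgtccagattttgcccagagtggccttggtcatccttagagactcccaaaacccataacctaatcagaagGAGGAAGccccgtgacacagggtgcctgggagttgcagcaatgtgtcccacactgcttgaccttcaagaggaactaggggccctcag
Casp4 promoter: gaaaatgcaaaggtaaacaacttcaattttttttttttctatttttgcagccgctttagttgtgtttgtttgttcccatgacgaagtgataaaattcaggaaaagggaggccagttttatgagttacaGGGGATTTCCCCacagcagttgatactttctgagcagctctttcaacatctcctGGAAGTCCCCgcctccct
The Mefv window held 1 AP-1, 1 RUNX and 2 NF-kappaB matches, the Nlrp3 window 1 AP-1 match, the Gsdmd window 1 PU.1 match, and the Casp4 window 4 NF-kappaB matches, 3 of which overlap. These letters are common. In the same length around the centres of all tested untreated peaks, the NF-kappaB letters occurred in 36.9% of windows, PU.1 in 21.9%, RUNX in 15.9%, C/EBP in 9.88%, AP-1 in 8.16%, STAT in 5.39%, IRF in 3.87% and MEF2 in 3.08%. Of the 45 windows of inflammasome peaks, 14 held the NF-kappaB letters, 14 PU.1, 11 RUNX, 7 C/EBP, 5 AP-1, 4 IRF, 1 MEF2 and 0 STAT. For the motifs matched in the second set, the shares around all tested LPS peaks were 39.1% (NF-kappaB), 20.4% (PU.1), 16.4% (RUNX) and 13.7% (AP-1). Of the 40 windows of tested inflammasome peaks after LPS, 13, 13, 10 and 8 held these letters. The printed Nlrc4 and Casp4 windows end at the start site and are not centred on a peak, unlike those behind these shares. A match is a run of letters and not a shown binding site.

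In untreated mice, the inflammasome peaks that differed between the populations were all more accessible in CD45.1 cells. Of the 45 peaks, 8 were called higher in CD45.1 (DESeq2, adjusted p under 0.05), namely 4 of Aim2, 2 of Nlrc4 and 1 each of Mefv and Casp1, where 8.54% of all 59170 tested peaks were called in that direction. No inflammasome peak was called higher in CD45.2 by DESeq2, where 2 had an unadjusted p under 0.05 and edgeR called 1, and where 6.32% of all tested peaks were called. The median log2 difference of CD45.1 over CD45.2 was 0.38 over the 45 peaks and 0.00084 over all tested peaks, and 33 of the 45 lay above 0. CD45.1 libraries were all higher than all CD45.2 libraries at 14 of the 45 peaks, against 17.8% of all peaks, and all lower at 3, against 17.7%. Under a stricter rule (adjusted p under 0.01 and more than 4-fold), 2 peaks were called, in Nlrc4 and Mefv, against 6.43% of all peaks. Without 1 library, the count of called peaks ranged from 5, without the CD45.1 library of replicate 5, to 10, without the CD45.2 library of replicate 4 that stood apart, and each of the 8 peaks was called in the latter fit.

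**Figure D1:**
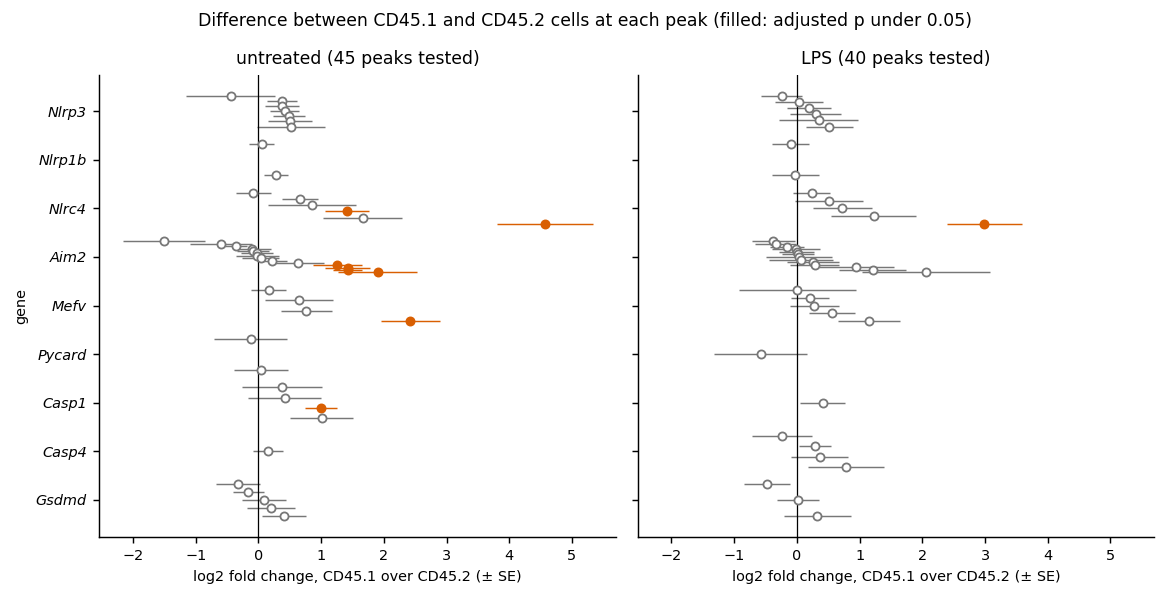
Log2 fold change of CD45.1 over CD45.2 (horizontal axis, with its SE) for each tested inflammasome peak, by gene (vertical axis), in untreated (left) and LPS mice (right). Filled orange points are the 8 untreated peaks and the 1 LPS peak with an adjusted p under 0.05, all to the right of 0.

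Among the sensors, Nlrc4 differed most. NLRC4 assembles with NAIP proteins that bind flagellin and parts of bacterial secretion systems. Its promoter peak at -67 bp (chr17:74858442-74858589) held 36.5, 29.5 and 47 raw tags in the CD45.1 libraries of replicates 4, 5 and 6 and 0, 2 and 3 tags in the CD45.2 libraries. The peak was called in the lists of all 3 CD45.1 libraries and of 0 CD45.2 libraries. After normalization for depth these were 37.4 ± 12.5 (SD, n = 3) and 1.33 ± 1.23 tags, a log2 difference of 4.57 (SE 0.76, DESeq2 adjusted p = 1.37e-07, and 5.18 without the CD45.2 library of replicate 6). Summed over libraries, 113 against 5 tags gave a depth-scaled ratio of 22.96 with a 95% interval of 9.55 to 72.1, which covers counting error only. The promoter call stood in all 10 alternatives that gave a value. The peak was listed, and passed the count filter (over 10 tags in at least 1 library), through CD45.1 libraries only. Its difference is therefore conditional on CD45.1 being high, and its list counts are no separate support.

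Of the other 5 Nlrc4 peaks, which lie in introns, the one at +26307 bp in intron 8 was also called. It held 50.8, 63.9 and 33.8 normalized tags in CD45.1 and 18.8, 15.5 and 20.7 in CD45.2, with a log2 difference of 1.41 (SE 0.36, DESeq2 adjusted p = 0.00115, but 0.0541 without the CD45.1 library of replicate 5). The peak beside it at +27378 bp overlapped between the groups (log2 difference -0.08, SE 0.28), as did that at +24446 bp. Those at +18428 bp (59.7 ± 2.80 against 39.3 ± 11.5 tags) and +4280 bp (15.4 ± 6.33 against 5.49 ± 2.51) did not overlap. They were called by edgeR (adjusted p = 0.0174 and 0.0131) but not by DESeq2 (adjusted p = 0.103 and 0.0578). The peak at +4280 bp was listed, and passed the count filter, through CD45.1 libraries only. Summed over its peaks, Nlrc4 reached 229 ± 10.7 normalized tags in CD45.1 against 135 ± 31.5 in CD45.2 (log2 difference 0.80, SE 0.17, DESeq2 adjusted p = 3.92e-05). Neutrophils and monocytes also express Nlrc4. Of 9 neutrophil markers, S100a8, Ly6g, Mpo and Camp had no peak in untreated mice, and the summed list ranged from 333 to 367 normalized tags in CD45.1 and from 308 to 324 in CD45.2. Retnlg (74.8 ± 15.1 against 4.34 ± 3.37 tags) and Mmp8 (19.3 ± 10.2 against 5.27 ± 0.607) were called higher in CD45.1, and S100a9 (17.5 ± 8.17 against 39.6 ± 16.03) was called higher in CD45.2. The monocyte list overlapped between the populations (476 to 627 against 470 to 545). The part of such cells in the Nlrc4 difference was not tested.

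Aim2, a sensor of cytosolic double-stranded DNA, had the most peaks, 14 in untreated mice, and they went in different directions. The peak at -1505 bp held 144, 122 and 156 normalized tags in CD45.1 and 71.3, 37.2 and 54.0 in CD45.2, so every CD45.1 library was above every CD45.2 library. The log2 difference was 1.42 (SE 0.23, DESeq2 adjusted p = 4.75e-08), and the call stood in all 11 alternatives. The promoter peak at -79 bp (chr1:175350593-175350719) held 113, 123 and 105 tags in CD45.1 against 163, 128 and 149 in CD45.2. Here CD45.2 libraries were the higher ones without overlap, but the difference was not called (log2 -0.36, SE 0.18, DESeq2 adjusted p = 0.185).

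The peak at -8455 bp held 47.1, 42.0 and 89.3 normalized tags in CD45.1 against 14.7, 21.3 and 27.2 in CD45.2 (log2 difference 1.42, SE 0.36, DESeq2 adjusted p = 0.00108, but 0.0703 without the CD45.1 library of replicate 6). Less firm were the intron peaks at +5920 bp (33.0 ± 4.62 against 14.04 ± 1.33 tags) and +31962 bp (16.4 ± 2.87 against 4.40 ± 1.02). Both peaks were listed in CD45.1 libraries only, and that at +31962 bp passed the count filter only there. Their log2 differences were 1.26 (SE 0.40) and 1.90 (SE 0.63), with DESeq2 adjusted p = 0.0140 and 0.0207. Both calls were lost without the CD45.1 library of replicate 4 or 5 or the CD45.2 library of replicate 5 or 6, with adjusted p between 0.0629 and 0.147. At +26719 bp the groups were reversed, 4.71 ± 0.444 in CD45.1 against 13.3 ± 2.71 in CD45.2 (log2 -1.504, SE 0.66, DESeq2 adjusted p = 0.115, called by edgeR at 0.0369). That peak was listed, and passed the count filter, through CD45.2 libraries only, so its difference is conditional on CD45.2 being high. The remaining 8 Aim2 peaks had log2 differences from -0.59 to 0.63 and none was called. Over the whole gene the difference was 0.24 (SE 0.10, DESeq2 adjusted p = 0.107). Aim2 and Ptprc, whose alleles tell graft from host, lie 35.2 Mb apart on chromosome 1. Within 5 Mb of Aim2, 67 of 390 tested untreated peaks were called, 46 of them higher in CD45.1, a share of 17.2% against 14.9% of all tested peaks. The part of linked donor alleles was not tested.

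Mefv encodes pyrin, an inflammasome sensor. Its peak nearest to the start site, at +3215 bp in intron 2 (chr16:3714825-3714993), held 28.9, 32.9 and 68.1 normalized tags in CD45.1 and 8.19, 5.81 and 10.1 in CD45.2. All 3 CD45.1 lists and 0 CD45.2 lists held this peak, so it entered the merged peaks through CD45.1 only. The log2 difference was 2.42 (SE 0.47, DESeq2 adjusted p = 9.97e-06), in all 11 alternatives on the same side of the threshold. The other 3 Mefv peaks were not called, with log2 differences from 0.16 to 0.76. The CD45.1 library of replicate 6 was the highest at each of the 4 Mefv peaks. Summed over them, Mefv differed by 0.72 (SE 0.24, DESeq2 adjusted p = 0.0202), and that call was lost without the CD45.1 library of replicate 6 (0.456), the CD45.2 library of replicate 4 (0.115) or that of replicate 5 (0.149).

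Nlrp3 and Nlrp1b showed no called peak. NLRP3 responds to potassium loss and other disturbances of the cell, and its promoter peak at -32 bp (chr11:59356076-59356237) held 51.8, 73.5 and 109 normalized tags in CD45.1 and 42.6, 66.2 and 66.9 in CD45.2. The groups overlapped there (log2 0.38, SE 0.28, DESeq2 adjusted p = 0.472). Of its 7 peaks, the smallest adjusted p was at -15803 bp, with 69.5, 82.1 and 94.2 tags against 41.8, 76.2 and 52.3 (log2 0.49, SE 0.25, DESeq2 adjusted p = 0.224). Of the 7 log2 differences, 6 were above 0, and the summed gene differed by 0.39 (SE 0.15, DESeq2 adjusted p = 0.0655). NLRP1B is cut by proteases such as anthrax lethal factor. Its promoter peak at -133 bp (chr11:71044291-71044445) held 89.1, 94.0 and 102 tags in CD45.1 and 77.8, 97.9 and 95.8 in CD45.2 (log2 0.05, SE 0.20). The other peak assigned to it, at -20813 bp, lies in an intron of the neighbouring Nlrp1c-ps and held 150 ± 29.4 and 122 ± 18.6 tags (log2 0.28, SE 0.19). The Nlrp1 genes are near-identical copies, so the assignment of their reads is uncertain.

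The adaptor Pycard had low counts. Its peak at +103 bp in the first exon (chr7:135137218-135137339) held 15.4, 21.9 and 20.7 normalized tags in CD45.1 and 12.3, 17.4 and 24.3 in CD45.2, which overlap (log2 0.04, SE 0.44). The peak at +1850 bp held 9.89 ± 3.84 and 10.8 ± 1.72. At this depth a difference of a few tags was not detectable.

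Of the caspases, Casp1 differed and Casp4 did not pass the test. The main Casp1 peak at +114 bp covers the first exon (chr9:5298556-5298707) and held 69.0, 93.1 and 81.1 normalized tags in CD45.1 against 31.95, 44.1 and 42.2 in CD45.2. Every CD45.1 library was above every CD45.2 library, and the log2 difference was 1.00 (SE 0.26, DESeq2 adjusted p = 0.00143). The peak at -68 bp held only 9.19 ± 1.05 and 7.62 ± 2.28 tags. Summed, Casp1 reached 121 ± 12.4 tags in CD45.1 against 66.9 ± 4.596 in CD45.2 (log2 0.84, SE 0.20, DESeq2 adjusted p = 0.000555). Casp4, the sensor of cytosolic LPS, had 1 peak, in its promoter at -65 bp (chr9:5308726-5308842), with 78.4, 80.8 and 70.8 tags in CD45.1 and 90.1, 50.3 and 71.8 in CD45.2 (log2 0.15, SE 0.24).

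Gsdmd, the pore-forming effector, did not pass the test at any of its 5 peaks. The promoter peak at -28 bp (chr15:75692686-75692796) held 38.2, 24.2 and 43.0 normalized tags in CD45.1 and 23.8, 28.3 and 27.6 in CD45.2 (log2 0.40, SE 0.35, DESeq2 adjusted p = 0.582). The other 4, a cluster from -5305 to -4695 bp, had log2 differences between -0.33 and 0.20.

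At the level of genes, 3 of the 9 were called higher in CD45.1 (Nlrc4, Casp1 and Mefv), against 7.35% of all 16174 tested genes. All 3 calls were lost when libraries were scaled by their total tags (DESeq2 adjusted p of 0.117, 0.352 and 0.779), and of the 8 peak calls 4 remained, those of Aim2 at -1505 bp, Nlrc4 at -67 and +26307 bp and Mefv at +3215 bp. Of 62 other genes of the inflammasome and interleukin-1 pathway, 51 had a peak. Among them 4 were called higher in CD45.1 and 2 higher in CD45.2, against 7.35% and 7.46% of all genes, and the median log2 difference was 0.01 against -0.00096 over all genes. Il1rn, the interleukin-1 receptor antagonist (log2 1.01), Il18bp, which binds interleukin-18 (1.17), Gsdmc, a gasdermin (0.79), and Ifi204, a DNA sensor related to Aim2 (0.65), were higher in CD45.1. Il1r2, a decoy receptor (-0.74), and Naip2, a partner of NLRC4 (-0.50), were higher in CD45.2.

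After LPS the promoter of Nlrc4 was the one inflammasome peak that differed between the populations. Of 41 peaks 40 were tested, the Nlrp3 peak at +12115 bp having too few tags, and 1 was called higher in CD45.1, against 4.08% of all 49180 tested peaks. None was called higher in CD45.2, by DESeq2 or by edgeR, and none had an unadjusted p under 0.05 in that direction, while 2.38% of all tested peaks were called. The Nlrc4 peak at -84 bp (chr17:74858443-74858621) held 24, 24 and 38.5 raw tags in the CD45.1 libraries of replicates 1, 2 and 3 and 1, 2 and 10 in the CD45.2 libraries. Normalized, CD45.1 held 19.4, 31.3 and 36.3 and CD45.2 1.75, 1.74 and 5.94 tags, again without overlap. The log2 difference was 2.99 (SE 0.60, DESeq2 adjusted p = 7.74e-05), and 86 against 13 raw tags gave a ratio of 7.35 (95% interval 4.08 to 14.4, counting error only). Without the CD45.2 library of replicate 3, which held 10 of those 13 tags, the log2 difference was 4.02 (DESeq2 adjusted p = 0.00301). It was also called under the stricter rule, against 2.97% of all peaks. All 3 CD45.1 lists and 0 CD45.2 lists held the peak, and here too it passed the count filter through CD45.1 only. The neutrophil list, with 7 of 9 genes, ranged from 168 to 194 normalized tags in CD45.1 and from 113 to 208 in CD45.2 after LPS. Of its genes, Mmp8 (54.1 ± 9.95 against 19.1 ± 6.16 tags) was called higher in CD45.1 and 0 were called higher in CD45.2. The part of such cells in the Nlrc4 difference after LPS was not tested.

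Aim2 at -1522 bp no longer separated the populations, with 94.6, 87.4 and 61.3 normalized tags in CD45.1 and 111, 66.7 and 68.9 in CD45.2 (log2 0.02, SE 0.26, DESeq2 adjusted p = 0.989). At the Aim2 promoter (-74 bp) the groups overlapped as well (57.9 ± 11.8 against 65.9 ± 15.0). The Aim2 peak with the smallest adjusted p was that at +5929 bp, with 18.2, 16.3 and 21.7 tags in CD45.1 and 4.38, 7.85 and 10.98 in CD45.2 (log2 1.21, SE 0.54, DESeq2 adjusted p = 0.209). Mefv at +3182 bp held 21.02, 16.3 and 24.1 against 6.13, 10.9 and 9.50 tags (log2 1.15, SE 0.50, DESeq2 adjusted p = 0.183). Neither of these peaks overlapped between the groups, and both were called by edgeR, with adjusted p = 0.0358 and 0.0246. The Aim2 peak at +5929 bp was listed in CD45.1 libraries only, so its difference is conditional on CD45.1 being high. CD45.1 libraries were all higher at 8 of the 40 peaks, against 14.1% of all peaks, and all lower at 1, against 13%.

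The other members had no called difference after LPS. Casp1 at +110 bp held 29.9, 33.9 and 33.0 normalized tags in CD45.1 and 29.8, 23.5 and 21.7 in CD45.2, which are close but do not overlap (log2 0.41, SE 0.35, DESeq2 adjusted p = 0.686). Casp4, with 4 peaks in this table, held 72.9 ± 10.2 and 60.5 ± 9.44 tags at its promoter (-65 bp) and 13.8 ± 7.42 against 8.78 ± 4.53 at +653 bp. The promoters of Nlrp3 (-51 bp, 30.2 ± 0.475 against 26.2 ± 4.97), Nlrp1b (-177 bp, 26.6 ± 5.10 against 26.7 ± 3.47) and Gsdmd (-37 bp, 13.2 ± 3.64 against 10.5 ± 1.48) overlapped between the populations. The smallest adjusted p of Nlrp3 was at -15786 bp (log2 0.52, SE 0.38, DESeq2 adjusted p = 0.596), of Nlrp1b at -20790 bp (log2 -0.10, SE 0.29, DESeq2 adjusted p = 0.938) and of Gsdmd at -5212 bp (log2 -0.48, SE 0.37, DESeq2 adjusted p = 0.617). The single Pycard peak, at +137 bp, held 5.47 ± 3.27 and 7.43 ± 4.42 tags.

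By gene, Nlrc4 was the 1 of 9 called after LPS, against 4.08% of all 15722 genes, with 129, 139 and 121 normalized tags in CD45.1 and 86.3, 75.6 and 70.8 in CD45.2 (log2 0.76, SE 0.21, DESeq2 adjusted p = 0.00689). The adjusted p was 0.104, 0.107 and 0.106 without the CD45.1 library of replicate 2, the CD45.2 library of replicate 2 and that of replicate 3. Of the 53 other pathway genes with a peak, Il1r1, the interleukin-1 receptor (log2 0.70), was called higher in CD45.1, and Il1a, the interleukin-1 alpha gene (-0.71), and Nlrc3, a NOD-like receptor (-1.65), higher in CD45.2, against 4.08% and 2.98% of all genes.

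**Figure D2:**
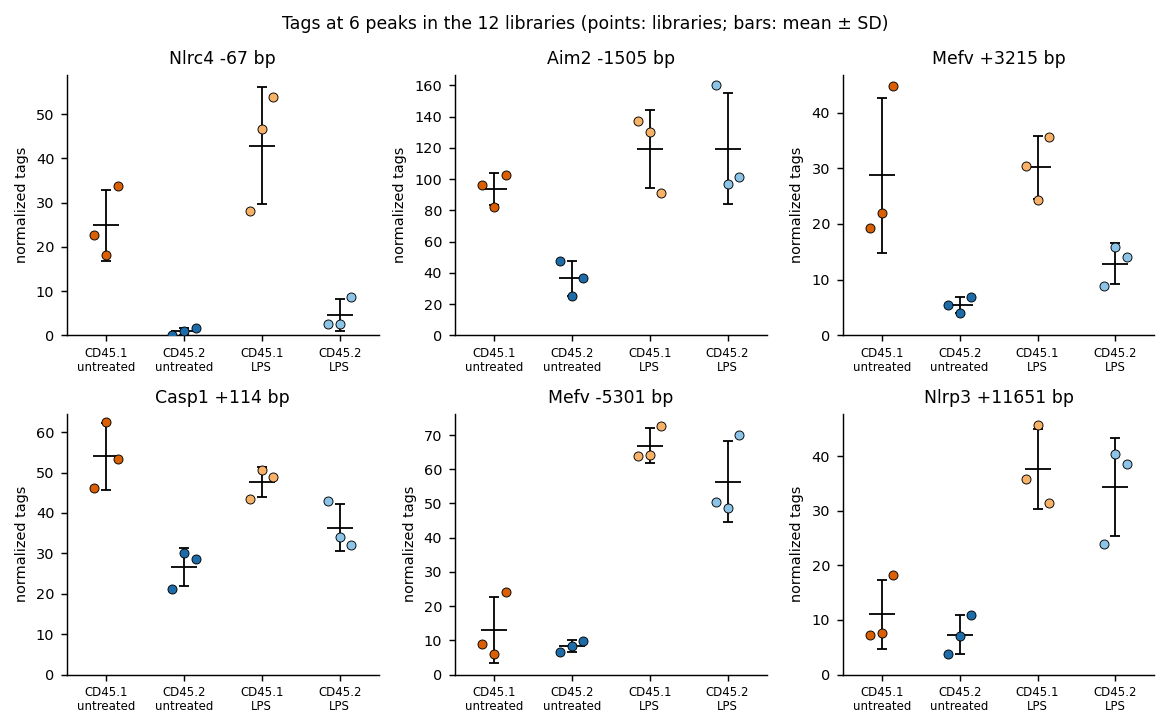
Normalized tags (vertical axis, starting at 0) at 6 matched inflammasome peaks in the 12 libraries, by population and treatment, with the mean and SD of each group. At Nlrc4 -67 bp the CD45.2 libraries lie between 0 and 8.75 tags, below all CD45.1 libraries, whereas at Mefv -5301 bp and Nlrp3 +11651 bp both populations are higher after LPS.

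To compare treatments, a peak of one table was paired with the peak of the other that shared at least 50% of its length in both directions. This left 32 inflammasome peaks of all 9 genes, normalized together over the 12 libraries, among 39235 tested. At 1 of the 32, the Aim2 peak at -1505 bp, the difference between the populations depended on the treatment, against 0.242% of all matched peaks. On this common scale it held 96.2, 82.1 and 102 tags in untreated CD45.1, 47.3, 25.3 and 36.5 in untreated CD45.2, 137, 130 and 90.9 in CD45.1 after LPS and 160, 96.7 and 102 in CD45.2 after LPS. The CD45.2 libraries after LPS were all above those of untreated mice, while the CD45.1 libraries overlapped between treatments. The LPS difference was 1.71 (SE 0.24, DESeq2 adjusted p = 2.89e-10) in CD45.2 and 0.35 (SE 0.23, DESeq2 adjusted p = 0.268) in CD45.1, and the interaction was -1.36 (SE 0.33, DESeq2 adjusted p = 0.0211). With total-tag scaling the adjusted p of the interaction was 0.293, and it was between 0.0543 and 0.251 without the CD45.1 library of LPS replicate 3, of untreated replicate 4 or of untreated replicate 6, or the CD45.2 library of LPS replicate 1, of untreated replicate 5 or of untreated replicate 6.

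Of the remaining 31 matched peaks, Aim2 at -8455 bp (interaction -1.08, SE 0.50) and Mefv at +3215 bp (-1.23, SE 0.63) had an unadjusted p under 0.05, at adjusted values of 0.829 and 0.907. At the Nlrc4 promoter the interaction was -1.56 (SE 0.92, DESeq2 adjusted p = 0.966), so its difference between the populations was not shown to depend on LPS. No member gene was called for the interaction by DESeq2 or edgeR, 0 of 9 had an unadjusted p under 0.05, and 0.184% of all matched genes were called.

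**Figure D3:**
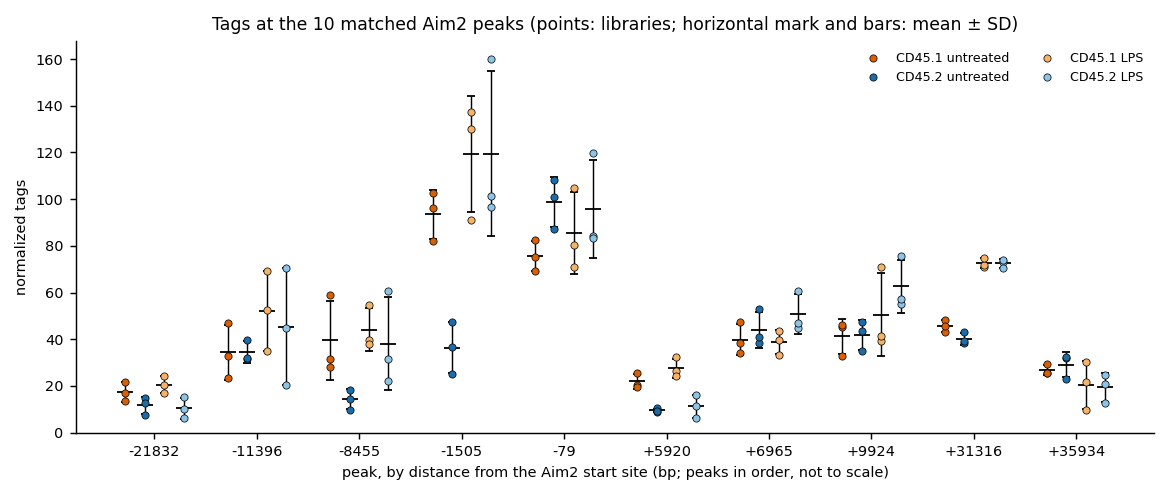
Normalized tags (vertical axis) at the 10 matched Aim2 peaks, ordered by distance from the start site (horizontal axis), in the 4 groups of 3 libraries with mean and SD. At -1505 bp the 3 untreated CD45.2 libraries lie between 25.3 and 47.3 tags, below the other 9 libraries, while at the promoter peak (-79 bp) all 12 libraries lie between 69.2 and 119.8 tags.

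After LPS several inflammasome peaks were higher than in untreated mice in both populations. In CD45.1 cells 6 of the 32 matched peaks were called higher after LPS and 1 lower, against 12.5% and 7.41% of all matched peaks. In CD45.2 cells 10 were called higher and 0 lower by DESeq2, where 1 had an unadjusted p under 0.05 and edgeR called 1, against 11.6% and 5.01%. Over the 32 peaks, the median log2 difference was 0.14 for CD45.1 cells and 0.34 for CD45.2 cells, and -0.0045 and -0.0072 over all matched peaks. These values carry the difference in peak width between the tables, and the effect of an offset for width is given where it removed a call. With libraries scaled by their total tags, 4 of the 7 CD45.1 calls and 4 of the 10 CD45.2 calls remained, namely Mefv at -5301 bp, Nlrp3 at +11651 bp and Gsdmd at -4850 bp in both populations, Casp4 at -65 bp in CD45.1 and Aim2 at -1505 bp in CD45.2.

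The peak with the largest difference lay -5301 bp from Mefv. It held 9.02, 6.12 and 24.01 tags in untreated CD45.1 and 63.9, 64.1 and 72.7 after LPS, and 6.53, 8.43 and 9.89 in untreated CD45.2 and 50.4, 48.6 and 70.0 after LPS. Treatment groups did not overlap in either population. The log2 differences were 2.38 (SE 0.35, DESeq2 adjusted p = 1.02e-09) in CD45.1 and 2.75 (SE 0.38, DESeq2 adjusted p = 6.01e-11) in CD45.2. Without the CD45.1 library of untreated replicate 6, the highest of its group, the CD45.1 difference was 3.17. In the untreated lists 1 CD45.1 and 1 CD45.2 library had a peak there, and after LPS all 6 had. This LPS peak was the narrower one (151 against 182 bp).

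In intron 5 of Nlrp3, at +11651 bp, tags were 7.16, 7.65 and 18.3 in untreated CD45.1 and 35.7, 45.7 and 31.5 after LPS, and 3.81, 7.11 and 10.99 in untreated CD45.2 and 23.96, 40.4 and 38.5 after LPS. The log2 differences were 1.76 (SE 0.39, DESeq2 adjusted p = 0.000157) and 2.16 (SE 0.41, DESeq2 adjusted p = 5.42e-06). Both calls stood with the width offset, at 1.25 and 1.66. The promoter peak of Nlrp3 did not pass the test, with log2 differences of -0.19 (SE 0.29) in CD45.1 and -0.04 (SE 0.30) in CD45.2.

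At -4850 bp from Gsdmd, tags were 21.8, 16.8 and 20.1 in untreated CD45.1 and 49.2, 79.7 and 42.0 after LPS, and 20.1, 15.8 and 21.2 in untreated CD45.2 and 41.6, 53.7 and 67.0 after LPS. The log2 differences were 1.503 (SE 0.30) and 1.57 (SE 0.30), with DESeq2 adjusted p = 2e-05 and 8.77e-06. The matched LPS peak is wider (254 against 152 bp) and reaches into the untreated peak at -4695 bp, and with the width offset the differences were 1.03 and 1.10, both called. The Casp4 promoter held 52.3, 54.2 and 46.6 tags in untreated CD45.1 and 88.5, 117 and 118 after LPS, and 59.8, 34.3 and 48.6 in untreated CD45.2 and 99.6, 89.7 and 74.4 after LPS. Its log2 differences were 1.07 (SE 0.22, DESeq2 adjusted p = 4.65e-05) and 0.90 (SE 0.23, DESeq2 adjusted p = 0.00134). With the width offset they were 0.69 in CD45.1 (still called) and 0.52 in CD45.2 (adjusted p = 0.110). After LPS, 3 further peaks were assigned to Casp4, at -712, +653 and +3033 bp, each called in the list of at least 1 LPS library, where the untreated table had 1 Casp4 peak in all.

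Other peaks were mostly called in one population by DESeq2. edgeR also called Mefv at +11259 bp and the Nlrc4 promoter in CD45.1, with edgeR adjusted p = 0.0290 and 0.0485. Nlrc4 at +27378 bp was also called by edgeR in CD45.2 (0.0487). In CD45.2, Aim2 at -8455 bp went from 9.79, 14.5 and 18.4 to 60.5, 22.1 and 31.5 tags (log2 1.27, SE 0.37, DESeq2 adjusted p = 0.00734, but 0.134 without the CD45.2 library of LPS replicate 1). The Nlrc4 promoter went from 0, 1.05 and 1.65 to 2.52, 2.53 and 8.75 tags in CD45.2 (log2 2.33, SE 0.84, DESeq2 adjusted p = 0.0353). That call was lost without the CD45.2 library of LPS replicate 3 (log2 1.25, adjusted p = 0.518) or without that of untreated replicate 4 (0.0908), 5 (0.131) or 6 (log2 2.94, adjusted p = 0.0832). Mefv at +11259 bp (1.24, SE 0.37, DESeq2 adjusted p = 0.00776) was lost with the width offset (0.0839) and without the CD45.2 library of LPS replicate 3 (0.0681) or untreated replicate 5 (0.114). Mefv at +3215 bp (1.33, SE 0.50, DESeq2 adjusted p = 0.0478) was lost without any 1 of 11 of the 12 libraries, at up to 0.209, the exception being the CD45.1 library of untreated replicate 6.

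In CD45.1, the Nlrc4 peak at +27378 bp was higher after LPS (0.92, SE 0.26, DESeq2 adjusted p = 0.00410, but 0.0840 with total-tag scaling). Nlrp1b at -133 bp was lower (-0.70, SE 0.25, DESeq2 adjusted p = 0.0318), where CD45.2 had -0.64 (SE 0.25, DESeq2 adjusted p = 0.0573), called by edgeR at 0.0177. That Nlrp1b call was lost with the width offset (0.189) and without any 1 of the 6 CD45.1 libraries, the highest value being 0.210 without LPS replicate 3. Aim2 at +31316 bp was called in both populations (0.67, SE 0.22, in CD45.1 and 0.85, SE 0.22, in CD45.2), but in neither with the width offset (adjusted p = 0.409 and 0.163). Its CD45.1 call was also lost without the CD45.1 library of LPS replicate 2 (0.0526), LPS replicate 3 (0.0822) or untreated replicate 4 (0.0740). A call in one population and not in the other does not show that they differ, and of these peaks none passed the test of the interaction.

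**Figure D4:**
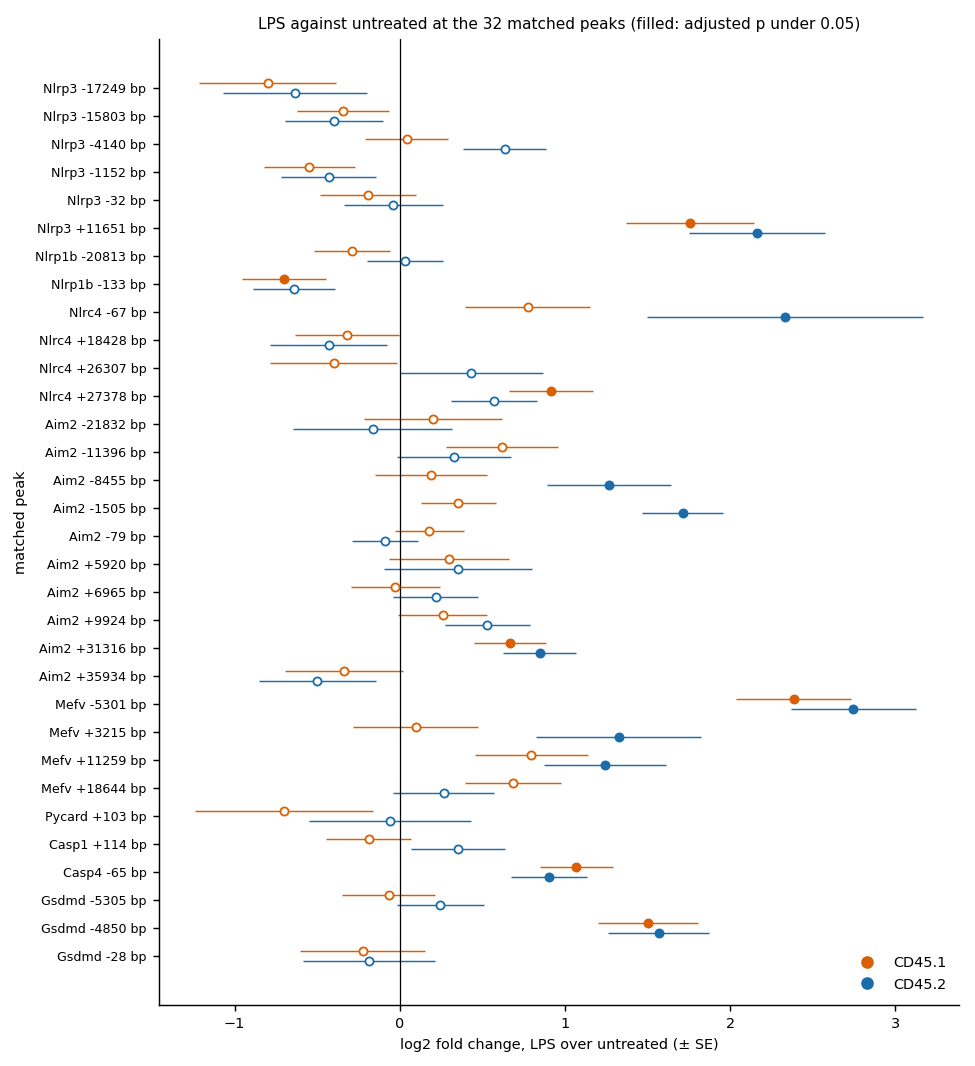
Log2 fold change of LPS over untreated (horizontal axis, with its SE) at each of the 32 matched inflammasome peaks (vertical axis, by gene and distance from the start site) in CD45.1 (orange) and CD45.2 cells (blue). Filled points have an adjusted p under 0.05, and the Mefv -5301 bp, Nlrp3 +11651 bp and Gsdmd -4850 bp peaks lie to the right of 1 in both populations.

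Summed over matched peaks, Casp4 (log2 1.04, SE 0.22) and Mefv (0.94, SE 0.23) were called higher after LPS in CD45.1, 2 of 9 genes against 15.6% of all matched genes. In CD45.2, Mefv (1.19, SE 0.24), Casp4 (0.87, SE 0.22), Gsdmd (0.56, SE 0.20) and Aim2 (0.50, SE 0.13) were called, 4 of 9 against 10.4%. With total-tag scaling the CD45.1 call of Casp4 remained and none of the 4 CD45.2 calls did. No width offset was fitted to the gene sums. The sum of Casp4 is its 1 matched peak, whose CD45.2 call was lost with that offset. No gene was called lower in either population by DESeq2. Of the 9 genes, 1 in CD45.1 (Nlrp1b) had an unadjusted p under 0.05 in that direction and was called by edgeR at 0.0352, and in CD45.2 there were 0 by either measure. The CD45.2 calls of Aim2 (0.0601) and Casp4 (0.0742) were lost without the CD45.2 library of untreated replicate 5. That of Gsdmd was lost without any 1 of the 3 CD45.2 untreated libraries, the CD45.2 library of LPS replicate 2 or 3, or the CD45.1 library of untreated replicate 4, at 0.0534 to 0.347.

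For the order of levels, group means of matched tags were compared within each gene. Nlrc4 ran from CD45.1 after LPS (173 ± 12.3) over CD45.1 untreated (139 ± 13.5) and CD45.2 after LPS (106 ± 9.79) to CD45.2 untreated (84.1 ± 18.9), and only the last neighbours overlapped. Mefv had the same groups at its ends, with 194 ± 22.8 in CD45.1 and 138 ± 30.6 in CD45.2 after LPS and 102 ± 40.8 and 61.0 ± 10.4 in untreated mice, of which the middle pair overlapped. Casp1 was highest in untreated CD45.1 (55.1 ± 8.66), which overlapped with CD45.1 after LPS (47.7 ± 3.56), followed by CD45.2 after LPS (36.4 ± 6.01) and untreated (27.3 ± 5.20), each apart from its neighbour. For Casp4 both LPS groups lay above both untreated groups. For Gsdmd the group means had that order, but the lowest CD45.2 library after LPS (87.7) lay below 2 of the untreated CD45.1 libraries (90.2 and 91.1). At both genes the populations overlapped within each treatment. For Nlrp3, Nlrp1b and Pycard all neighbours overlapped. Aim2 was apart at the lower end, where untreated CD45.1 (444 ± 33.4) lay above untreated CD45.2 (369 ± 32.7).

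**Figure D5:**
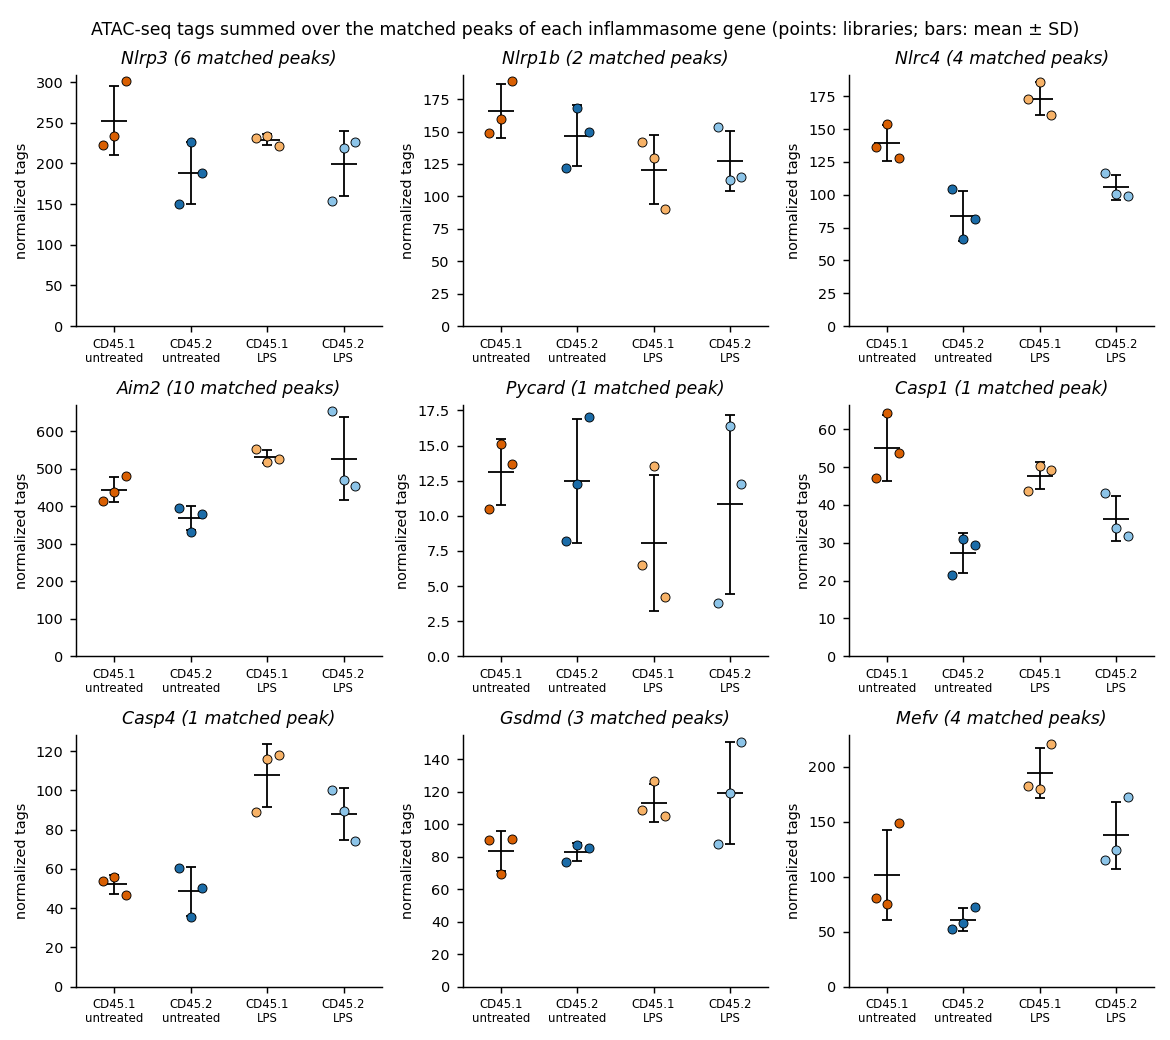
Normalized tags (vertical axis, starting at 0) summed over the matched peaks of each of the 9 inflammasome genes in the 4 groups of 3 libraries, with mean and SD. Nlrc4 is higher in CD45.1 than in CD45.2 within both treatments, and Casp4 is higher after LPS in both populations.

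Over the 12 libraries, the genes whose summed accessibility ran most like that of Nlrc4, among 12748 genes, were Ahr (Pearson r = 0.969), the aryl hydrocarbon receptor, 4930562F07Rik (0.960) and Tmem236 (0.960). The libraries fall into the 4 groups, so these coefficients describe a shared order of groups. Among the members, Casp1 (0.722) and Aim2 (0.652) were nearest to Nlrc4 and Nlrp1b (-0.199) was farthest.

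Calls between treatments were also counted for the other genes of the pathway. Of 48 with matched peaks, 11 were called higher and 6 lower after LPS in CD45.1, against 15.6% and 11.9% of all genes, and 6 and 4 in CD45.2, against 10.4% and 4.98%. Examples, chosen after their values were seen, are Naip2 (log2 1.02 in CD45.1 and 0.67 in CD45.2), Il1rn (0.86 and 1.65), Il1r1 (0.84 and 0.54) and Gbp5, a guanylate-binding protein gene (0.74 and 0.65), all called higher in both. P2rx7, the ATP-gated channel upstream of NLRP3 (-0.99 and -0.90), and Casp8 (-0.40 and -0.44) were called lower in both. None of the 48 was called for the interaction by DESeq2 or edgeR, and 2 had an unadjusted p under 0.05.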

How the data were processed

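ATAC-seq libraries of CD45.1 and CD45.2 cells of chimeric mice (3 libraries of each population from untreated and 3 from LPS mice) were analysed from the merged peak tables. The submitters' processing notes name bcl2fastq 2.17.1.14, Bowtie2, Picard 1.108, HOMER and the build mm9, and by the study's methods peaks were called with HOMER and filtered by their irreproducible discovery rate. The deposited tables hold peaks merged within each treatment. Whether duplicate reads were removed is not given in the sources used here. Their deposited values are HOMER tag counts in steps of 0.5 tag, that is estimated counts, with peaks assigned to the nearest start site. The deposited peak list of each library also holds a normalized coverage signal and fold ratios, of which the number of peaks and the header were used.

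Counts were rounded. Every peak whose count passed 10 in 1 library or more was fitted with DESeq2 1.42.0 (R 4.3.3), over all peaks of a table, with Benjamini-Hochberg adjustment over all of them and calls at an adjusted p under 0.05. Tags summed per gene were fitted in the same way. For treatment, peaks of both tables were matched one to one at a reciprocal overlap of at least 50% (39390 peaks) and fitted with population, treatment and their interaction. Normalized tags are counts divided by DESeq2 size factors. Alternatives were edgeR 4.0.16 (quasi-likelihood), the replicate number as a block, other filters, total-tag scaling, other overlaps, peak width as an offset and leaving out each library. Libraries held 2966364 to 9107770 tags. On simulated data, DESeq2 recovered 86.5% of 200 peaks changed 4-fold and 12.5% of 200 changed 2-fold in the untreated comparison, 87.5% and 20% after LPS, and 69.5% and 0% for the interaction. The changed peaks had a mean of at least 20 normalized tags, and every simulated peak was given the same spread. Recovery at peaks with fewer tags was not simulated.

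The labels number the libraries as replicates but name no animal, so they do not say whether same-numbered CD45.1 and CD45.2 libraries share a mouse. The main fits did not treat them as pairs, and the replicate block was an alternative. No libraries were left out. The member genes and gene lists were chosen with earlier results of these data known. Values are given in full for the peak nearest to the start site and the peak with the smallest adjusted p of each gene and table, and for a peak past the interaction threshold, and pathway genes are named where called in either table. Other named peaks were chosen after their values were seen.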

Additional observations from a re-analysis of the deposited data

Results flagged for a closer look

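At the Aim2 peak at -1505 bp, the difference between LPS and untreated mice was itself different in the 2 populations, by -1.36 on the log2 scale (SE 0.33, DESeq2 adjusted p = 0.0211 over all matched peaks, and 0.0163 by edgeR). Mean normalized tags were 93.6 ± 10.5 in untreated CD45.1, 119 ± 24.9 in CD45.1 after LPS, 36.4 ± 11.02 in untreated CD45.2 and 119 ± 35.3 in CD45.2 after LPS (SD, n = 3). The interaction was negative in all 18 alternatives, between -1.56 and -1.14, and it passed the threshold in 10 of them.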

How the results depend on the processing

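Of 37 calls of a peak or gene, 13 stood under every alternative that gave a value, 22 were lost with total-tag scaling, 4 with the replicate block, 5 with the width offset and 16 without at least 1 library, and 0 changed sign. The width offset was fitted to matched peaks only and not to genes. With total-tag scaling, called inflammasome peaks numbered 4 in place of 8 (untreated), 0 in place of 1 (interaction), 4 in place of 7 (LPS in CD45.1) and 4 in place of 10 (LPS in CD45.2), and called genes 0 in place of 3 (untreated), 1 in place of 2 and 0 in place of 4 (LPS in CD45.1 and CD45.2). That scaling moved the median of all peaks by 0.14 (CD45.1 over CD45.2 after LPS), 0.10 (interaction) and -0.14 (LPS term of CD45.2). Same-numbered CD45.1 and CD45.2 libraries share a number, and no label says that they share a mouse. Their deviations from the group means correlated at 0.081, 0.082 and 0.087 in untreated mice, where each library ran best with its own number, and at -0.066, 0.061 and 0.149 after LPS, where replicates 1 and 2 did not. With the number as a replicate block, a fit that gives no LPS term, 4 of 14 calls were lost. The 1 interaction call (adjusted p = 0.0880) and the 1 gene call after LPS (Nlrc4, 0.139) became 0, and of 8 untreated peaks the Aim2 calls at +5920 (0.0937) and +31962 bp (0.0970) were lost. edgeR called 3 peaks after LPS in place of 1. With a mean count of at least 20, Nlrc4's promoter peak was not tested, which left 1 of 2 peaks under the stricter rule in untreated mice and 0 of 1 after LPS under either rule. A 75% overlap kept 13 of the 32 peaks. It gave 2 called LPS peaks in CD45.1 in place of 7, of which 1 (Nlrc4 at +27378 bp) was among the 7, and 3 in CD45.2 in place of 10, all among the 10, and the other called peaks were not matched. Called genes were 1 in place of 2 and 1 in place of 4.

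Without 1 library, called peaks ranged from 5 to 10 (untreated), 1 to 2 (stricter rule), 1 to 1 (LPS, both rules), 0 to 1 (interaction), 5 to 8 (LPS in CD45.1) and 7 to 10 (LPS in CD45.2), and called genes from 2 to 3 (untreated), 0 to 1 (LPS), 0 to 0 (interaction), 2 to 4 (LPS in CD45.1, with 4 without the CD45.2 library of LPS replicate 1) and 1 to 4 (LPS in CD45.2, with 1 without the CD45.2 library of untreated replicate 5). The lowest untreated count came without the CD45.1 library of replicate 5, and the count under the stricter rule was 1 without that of replicate 6.

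Over all untreated peaks, 8789 were called, and 13545 by edgeR, 4248 at a mean of at least 20 and 5524 with total-tag scaling. After LPS these were 3178, and 5914 by edgeR, 945 at a mean of at least 20 and 1804 with the block. Interaction calls were 95, and 51 with the block, 46 at 75% overlap and 27 with total-tag scaling. LPS calls in CD45.1 were 7816 (3253 at 75% overlap and 2918 with total-tag scaling) and in CD45.2 6519 (2400 and 2913). Over all genes, 2395 were called in untreated mice (1592 with the block, 775 with total-tag scaling), 1111 after LPS (594 with the block) and 27 for the interaction (10 by edgeR, 6 with the block and 1 with total-tag scaling). LPS gene calls were 4041 in CD45.1 (2370 at 75% overlap, 417 with total-tag scaling) and 2259 in CD45.2 (1199 and 263). The causes of these shifts were not tested. Peaks with few tags, such as those of Pycard, allow no statement on small differences.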
